A study of Mus musculus with 12 samples.

Results

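Iron handling and hepcidin genes were followed in the livers of mice that lack Phgdh in hepatocytes. The 10 genes were chosen by name for their roles in iron traffic and its control, and were Hamp, Hamp2, Tfrc, Tfr2, Trf, Slc40a1, Fth1, Ireb2, Aco1 and Bmp6. All 10 were detected well above background on all 12 arrays and stood among the 16915 genes tested. The question put to them was whether loss of hepatocyte Phgdh, the enzyme that begins serine synthesis from a glycolytic intermediate, came with a change in their mRNA levels. LKO mice carried Alb-Cre and Phgdh flox/flox, so that exons of Phgdh are removed where the albumin promoter drives Cre, that is, in hepatocytes and not in other liver cells. Floxed mice were littermates with Phgdh flox/flox and no Cre, so both genotypes share the floxed allele. All mice were C57BL/6 males, 30 weeks of age, kept on chow with casein, with 6 mice per genotype, 1 mouse per array and 4 arrays per slide. Floxed 1 to 4 were on slide 1 and LKO 3 to 6 on slide 3, while slide 2 carried both genotypes (Floxed 5 and 6, LKO 1 and 2).

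The liver sets the iron level of the body. Hepcidin, the peptide hormone encoded by Hamp, is made by hepatocytes and binds ferroportin, the iron exporter encoded by Slc40a1, which is then degraded. Iron loading raises hepcidin through BMP6, released by sinusoidal endothelial cells, and SMAD signaling in hepatocytes, and inflammation raises it through IL-6 and STAT3. Inside cells, the iron regulatory proteins encoded by Aco1 and Ireb2 bind iron-responsive elements in mRNAs such as those of Tfrc and Fth1, so that much of this control acts on mRNA stability and translation.

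Mice have a pair of neighboring hepcidin genes, and their upstream sequences are shown because both genes spread widely between mice. Much of the spread of Hamp came from LKO 3. The 250 bases before each RefSeq transcription start are given 5′ to 3′ from assembly GRCm38.p6, at chr7:30944030-30944279 on the minus strand for Hamp and at chr7:30924182-30924431 on the minus strand for Hamp2. Capitals mark the BMP element (GGCGCC) or the bases aligned with it, and after it the STAT element (TTCNNNGAA).
Hamp: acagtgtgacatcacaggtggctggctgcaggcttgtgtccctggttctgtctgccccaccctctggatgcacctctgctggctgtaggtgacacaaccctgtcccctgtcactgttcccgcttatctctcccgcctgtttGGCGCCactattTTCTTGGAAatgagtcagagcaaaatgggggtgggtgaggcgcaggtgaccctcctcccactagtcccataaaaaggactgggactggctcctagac
Hamp2: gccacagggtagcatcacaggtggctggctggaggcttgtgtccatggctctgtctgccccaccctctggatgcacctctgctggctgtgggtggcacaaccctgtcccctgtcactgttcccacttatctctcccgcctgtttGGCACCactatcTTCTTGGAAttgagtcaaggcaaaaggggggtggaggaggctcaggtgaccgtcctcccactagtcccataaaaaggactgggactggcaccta
Of 247 aligned bases, 227 were identical (91.9%). Hamp held GGCGCC 109 bases before the start, and Hamp2 held GGCACC 106 bases before its start, a G4A substitution counted from the first base of the element and written from Hamp to Hamp2. The STAT element had the same letters in both, 97 bases before the start of Hamp and 94 before that of Hamp2. Of the 10 genes, 8 had an entry in the promoter table, and those without one were Trf and Slc40a1. All 3 motifs searched read the same on both strands. These 8 genes have 12 windows, 1 for each listed start. The BMP element was found in 2 of the 12 (Hamp, and 1 of 2 windows of Tfrc, 89 bases before that start) and in 9.59% of all 32851 windows of the same length. The STAT element was found in 2 of the 12 and in 7.02% of all windows. The E-box CACGTG was found in 1 of the 12 (Bmp6, 127 bases before its start) and in 6.02% of all windows. A match in letters is a description and not a site shown to be bound.

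Levels are log2 quantile-normalized intensities, and each difference is LKO minus Floxed on that scale. The criterion for a call was a limma p below 0.05 before adjustment. The array methods of the study used the same threshold. Of the 10 genes, 1 was called (Ireb2, lower in LKO mice) and 0 were called higher, beside 8.35% of all genes called, 3.43% lower and 4.92% higher. A share of 1 in 10 is near that background. For none of the 10 genes were the genotypes free of overlap, beside 0.296% of all genes. The median difference over the 10 genes was -0.019, and -0.0035 over all genes, with 5 of the 10 higher and 5 lower. After Benjamini-Hochberg adjustment over all genes, 0 genes passed 0.05, and the smallest adjusted p was 0.132, while 1413 genes had an unadjusted p below 0.05 and the methods' t-test left 1 gene after adjustment.

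The arrays behaved alike in number of probes well above background, with 21614 to 23913 of 39429 on Floxed arrays and 22399 to 24252 on LKO arrays, and 0 spots were saturated. The array of LKO 5 stood apart, being lowest by over 1 log2 for 37 genes and highest for 81, while the other arrays were so for at most 8 and 10 genes. Phgdh itself was 5.18 ± 0.23 (SD, n = 6) in Floxed and 4.70 ± 0.41 in LKO mice, a difference of -0.48 (SE 0.18, limma adjusted p = 0.451), and Phgdh was called lower by the criterion above. The genotypes overlapped, with Floxed mice down to 4.81 and LKO mice up to 5.30. Within slide 2 this difference was -0.055, and whether the probe lies in the deleted exons was not tested. The Phgdh probe was dim, with both means below those of Ireb2 (5.48 in Floxed and 5.15 in LKO mice). By qRT-PCR and Western blot, the study reported lower but not abolished Phgdh mRNA and protein in LKO livers. All 6 hepatocyte markers were detected, and fewer cells of a type and less RNA per cell cannot be told apart in whole liver.

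**Figure D1:**
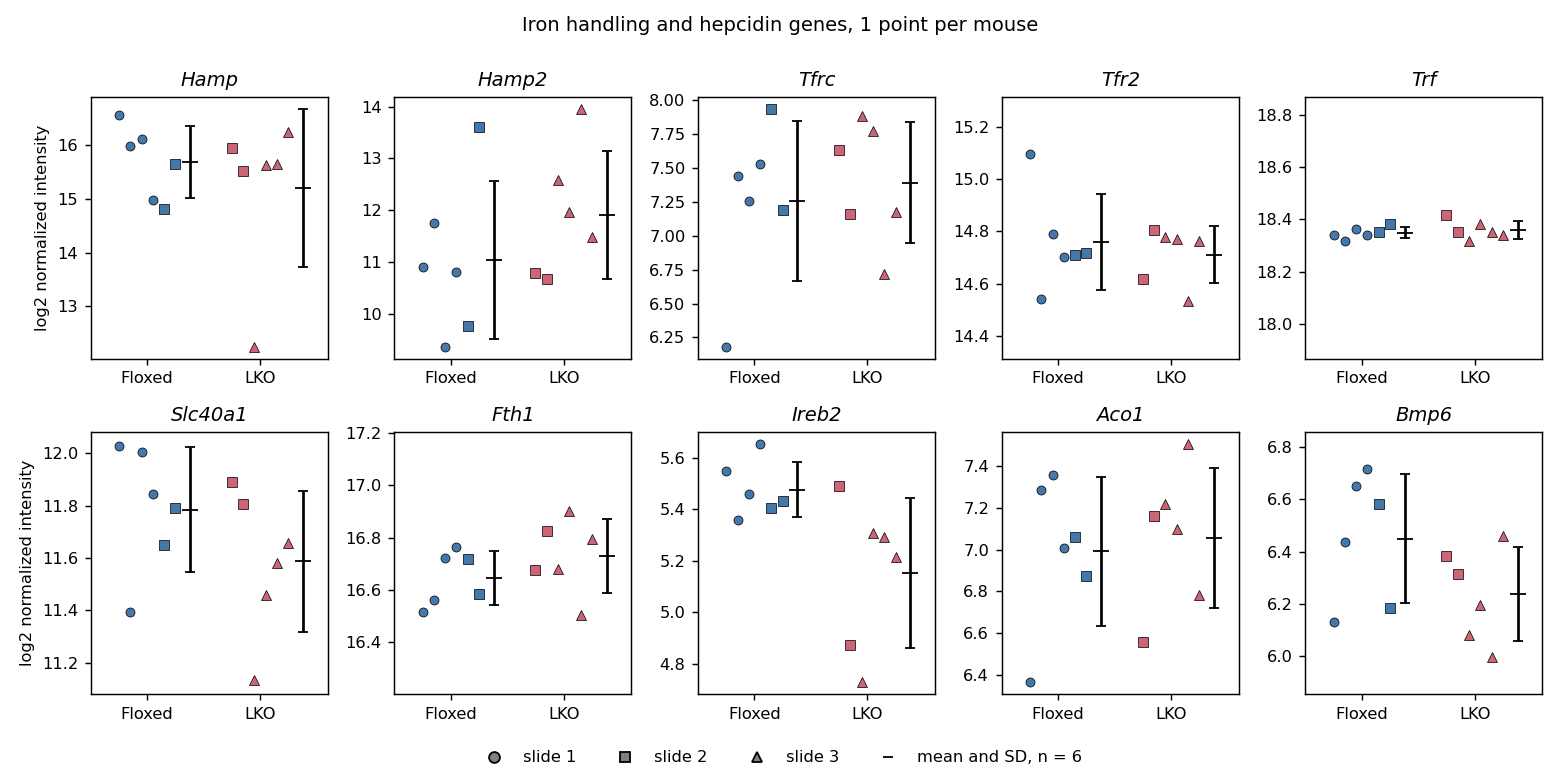
Log2 normalized intensity (y axis, own scale in each panel) of the 10 genes in 6 Floxed and 6 LKO mice, 1 point per mouse with the slide as its shape, and mean and SD beside each group. Hamp in LKO 3 (12.25) lies far below the other 11 mice, Hamp2 spreads widely in both genotypes, and Ireb2 is the only gene called.

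Hamp, the main hepcidin gene of mice, lay between 14.81 and 16.57 in 11 of 12 mice. In Floxed mice 1 to 6 its level was 16.57, 15.98, 16.11, 14.99, 14.81 and 15.64. In LKO mice 1 to 6 it was 15.95, 15.52, 12.25, 15.64, 15.65 and 16.24. The genotypes overlapped, and LKO 3 alone was low. The difference was -0.48 (SE 0.58, 95% confidence interval -1.74 to 0.79, limma p = 0.43, adjusted p = 0.95), with p = 0.645 by a two-sided exact permutation test. Without LKO 3 the difference was 0.12. Within slide 2 it was 0.51, so the direction of the difference was not settled.

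The level in LKO 3 was 11.7-fold below the mean of the other 5 LKO mice, which lay at 15.8 ± 0.292 (SD, n = 5). It was 2.57 log2 below every other array, the widest such gap on that array among 16894 genes. Hamp was read by 1 probe with 1 spot per array, and the spot of LKO 3 was not marked as an outlier. Before normalization its processed intensity was 4842, against 30400 to 83760 on the other 11 arrays, and its local background was 62, against 59.5 to 72. The low value was therefore present in the scanner signal. In the same mouse Id1, a transcriptional regulator induced by BMP signaling, was 8.28 and Smad7, an inhibitor of that signaling induced by it, was 6.58, each the lowest of 12. Slc40a1 and Ireb2 were lowest in this mouse too. Smad6 was 7.39 in LKO 3 and 7.02 in Floxed 3, and Atoh8 was 6.65 in LKO 3 and 6.32 in Floxed 6. Neither was therefore lowest in LKO 3. The marker lists in LKO 3 deviated from their mean over mice by -0.32 for erythroid, -0.29 for stellate and -0.17 for Kupffer genes. Sinusoidal endothelial genes deviated by -0.056 and pancreas acinar genes by 0.30. Hepatocyte genes deviated by -0.0087 and acute phase genes by 0.12. The part of these lists in the result was not tested.

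Hamp2, the neighboring paralog whose role in iron control is less settled, had the widest within-genotype spread of the 10 genes. In Floxed mice 1 to 6 its level was 10.91, 11.76, 9.36, 10.80, 9.76 and 13.60. In LKO mice 1 to 6 it was 10.78, 10.66, 12.59, 11.97, 13.96 and 11.48. High levels occurred in both genotypes, in Floxed 6 and in LKO 5. The difference was 0.88 (SE 0.71, 95% confidence interval -0.65 to 2.41, limma p = 0.237, adjusted p = 0.881; exact permutation p = 0.301). Over the 12 fits that left out 1 mouse it ran from 0.465 to 1.39. Only the highest, without Floxed 6, passed the threshold for a call. Within slide 2 the difference was -0.96. The range over the 12 mice was 24.3-fold for Hamp2 and 19.9-fold for Hamp.

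The spread within a genotype was wide for both hepcidin genes. The within-genotype SD was 1.39 for Hamp2 and 1.15 for Hamp, at percentiles 99.9 and 99.7 of all genes tested. For Hamp much of this came from LKO 3. Its SD was 1.47 in LKO mice, 0.292 in the 5 LKO mice other than LKO 3, and 0.677 in Floxed mice. Over the 12 mice, Hamp and Hamp2 had r = -0.20 and rho = -0.056 (permutation p = 0.53 and 0.868). LKO 3, lowest for Hamp, was above 9 of the other 11 mice for Hamp2. How far each probe separates these similar transcripts was not tested.

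The BMP arm that controls hepcidin was next compared. Bmp6, the ligand, was 6.13, 6.44, 6.65, 6.72, 6.58 and 6.18 in Floxed mice 1 to 6. It was 6.38, 6.31, 6.08, 6.20, 6.00 and 6.46 in LKO mice 1 to 6. The genotypes overlapped, and the difference was -0.21 (SE 0.12, 95% confidence interval -0.47 to 0.052, limma p = 0.107, adjusted p = 0.745; exact permutation p = 0.123). Over the 12 fits that left out 1 mouse it ran from -0.27 to -0.16. Only the fit without Floxed 1 (-0.27) passed the threshold. Within slide 2 the difference was -0.032. The 8 sinusoidal endothelial markers, genes of the cells that release BMP6, deviated from their mean by -0.11 to 0.15 in Floxed and -0.21 to 0.15 in LKO mice, and 0 of 8 were called. Tfr2, a hepatocyte transferrin receptor that takes part in iron sensing, ranged from 14.54 to 15.10 in Floxed and from 14.53 to 14.80 in LKO mice, and its difference was -0.049 (SE 0.093, limma p = 0.611, adjusted p = 0.972, exact permutation p = 0.619). Its 95% confidence interval ran from -0.25 to 0.15.

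Of the 20 genes of BMP and hepcidin control that were tested, Hamp, Hamp2 and Bmp6 included, 0 were called, with 6 higher, 14 lower and a median of -0.059. Without LKO 5 and Floxed 1, 10 of the 20 lay lower, with a median of -0.013. Within slide 2, 9 lay higher and 11 lower. Of all genes tested, 8257 lay higher and 8658 lower. A further, dimmer Acvr2a probe gave -0.44 (limma adjusted p = 0.518) and passed the threshold for a call. Id1 differed by 0.18 (SE 0.33, limma adjusted p = 0.972) and Smad7 by -0.058 (SE 0.20, limma adjusted p = 0.98). Hjv, the BMP coreceptor hemojuvelin, differed by 0.19 (SE 0.19, limma adjusted p = 0.929). Tmprss6, the protease that cleaves hemojuvelin, differed by 0.051 (SE 0.09, limma adjusted p = 0.972), and Hfe, the hemochromatosis protein, by 0.094 (SE 0.071, limma adjusted p = 0.862). All 4 genes of the IL-6 arm lay lower, with a median of -0.35, and 0 were called. The mean deviation of the arm was -0.69 in LKO 5 and 0.58 in Floxed 1, while the other LKO mice lay from -0.18 to 0.13. Without LKO 5 and Floxed 1 all 4 still lay lower, with a median of -0.10. Within slide 2 the median was -0.13, with 1 of the 4 higher. Among them, chosen after their values were seen, were Socs3, a feedback inhibitor (-0.64, SE 0.35, limma adjusted p = 0.726), and Stat3 (-0.29, SE 0.20, limma adjusted p = 0.824). A further, dimmer Stat3 probe gave -0.59 (limma adjusted p = 0.583) and passed the threshold for a call.

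**Figure D2:**
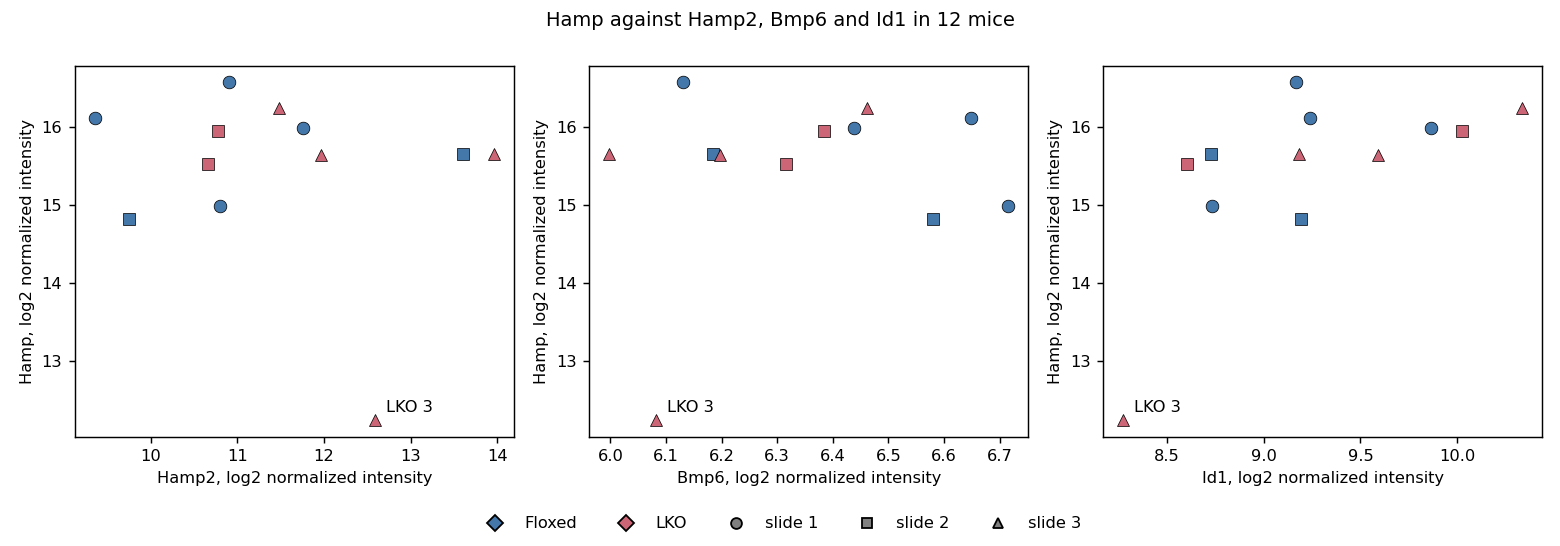
Hamp (y axis) against Hamp2, Bmp6 and Id1 (x axes), all in log2 normalized intensity, 1 point per mouse, with genotype as color and slide as shape. LKO 3 lies at the lower edge in each panel, and this mouse and LKO 6 lie farthest from the median of Id1.

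Over the 12 mice, 6 relations among Hamp, Hamp2, Bmp6, Tfr2, Id1 and Saa1, an acute phase gene, were computed. Hamp and Id1 gave r = 0.626 (permutation p = 0.0199, adjusted p = 0.119) and rho = 0.580 (permutation p = 0.0536, adjusted p = 0.321). With genotype and slide means removed, r was 0.704. Without LKO 3 and LKO 6, the mice farthest from the median of Id1, r was 0.374 (permutation p = 0.292). Leaving out these mice also narrows the range of Id1, so whether the relation rests on them was not settled. The other 5 relations lay between r = -0.20 and r = 0.226, each with an adjusted p of 0.709. By likeness over the 12 arrays among 16893 genes, AK079292, an unnamed transcript, was closest to Hamp (r = 0.937, and 0.752 without LKO 3). Pip5kl1 followed at r = 0.885 and Tor1b at r = 0.884, which were 0.487 and 0.324 without LKO 3. These values are given as a description.

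Iron enters hepatocytes bound to transferrin. Trf, which encodes it, ranged from 18.32 to 18.38 in Floxed and from 18.32 to 18.42 in LKO mice. Its difference was 0.011 (SE 0.055, 95% confidence interval -0.11 to 0.13, limma p = 0.844, adjusted p = 0.988, exact permutation p = 0.591), and a further probe gave -0.0089. Trf was among the brightest genes, where quantile normalization gives every array nearly the same values, so its SD of 0.021 in Floxed and 0.035 in LKO mice is in large part set by the scaling. With scaling to the 75th percentile, chosen for this after seeing the data, the SD was 0.287 and 0.264. The further probe had SDs of 0.076 and 0.104 after quantile normalization, and of 0.195 and 0.146 with scaling to the 75th percentile. Tfrc, the transferrin receptor of most cells, was 6.18, 7.44, 7.25, 7.53, 7.94 and 7.19 in Floxed mice 1 to 6. In LKO mice 1 to 6 it was 7.63, 7.16, 7.89, 7.77, 6.72 and 7.18. Floxed 1 was the lowest and the genotypes overlapped, with a difference of 0.14 (SE 0.27, limma p = 0.626, adjusted p = 0.972, exact permutation p = 0.677). A further probe gave 0.19, and another was well above background on 2 Floxed arrays and 1 LKO array.

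Slc40a1, ferroportin, was 12.03, 11.39, 12.00, 11.85, 11.65 and 11.79 in Floxed mice 1 to 6. In LKO mice 1 to 6 it was 11.89, 11.81, 11.13, 11.46, 11.58 and 11.66. Its difference was -0.20 (SE 0.14, 95% confidence interval -0.50 to 0.10, limma p = 0.181, adjusted p = 0.836, exact permutation p = 0.214), and within slide 2 it was 0.13. All 7 Kupffer cell markers tested, genes of the liver macrophages that also use ferroportin, lay lower in LKO mice with 0 called, and their mean deviation ranged from -0.52 to 0.91 in Floxed and from -0.79 to 0.61 in LKO mice. Within slide 2, 6 of the 7 lay higher in LKO mice, with a median of 0.0951, so that they turned direction there as Slc40a1 did. Their part in the Slc40a1 value was not tested. Fth1, the heavy chain of the iron store ferritin, ranged from 16.52 to 16.77 in Floxed and from 16.51 to 16.90 in LKO mice. Its difference was 0.085 (SE 0.082, limma p = 0.319, adjusted p = 0.921, exact permutation p = 0.251), and that of Ftl1, the light chain, was 0.14 (SE 0.081, limma adjusted p = 0.752).

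Ireb2 encodes iron regulatory protein 2, whose protein is degraded when iron is plentiful. Its level was 5.55, 5.36, 5.46, 5.65, 5.40 and 5.43 in Floxed mice 1 to 6. In LKO mice 1 to 6 it was 5.49, 4.87, 4.73, 5.31, 5.29 and 5.22. On this normalized scale, 5 of the LKO mice lay below all Floxed mice, and LKO 1 lay among them. Before normalization, with array brightness not evened out, the genotypes overlapped. Processed intensity was then 28.26 to 64.11 on Floxed and 27.98 to 49.52 on LKO arrays. The raw median signal was 89.5 to 119 over the arrays, against a local background of 59 to 71. Ireb2 fell by 0.32 (SE 0.12, 95% confidence interval -0.59 to -0.058, 0.799-fold, limma p = 0.0209, adjusted p = 0.476), and the exact permutation p was 0.0173. Within slide 2, and so with slide as a block, the difference was -0.24 and the gene was not called. The call was also lost without LKO 2 (-0.24), with scaling to the 75th percentile (-0.21) and with normexp background correction (-0.033), and kept in 11 of the 12 fits that left out 1 mouse. Its mean intensity of 39.8 units, at percentile 13.1 of the genes tested, lies below the offset of 50 that this correction adds. Aco1, cytosolic aconitase and iron regulatory protein 1, ranged from 6.37 to 7.36 in Floxed and from 6.56 to 7.51 in LKO mice, with a difference of 0.062 (SE 0.18, limma p = 0.74, adjusted p = 0.977, exact permutation p = 0.764). By likeness over the 12 arrays, Erlin1 (r = 0.919), NAP093863-001 (r = 0.894) and Katnbl1 (r = 0.888) were closest to Ireb2.

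**Figure D3:**
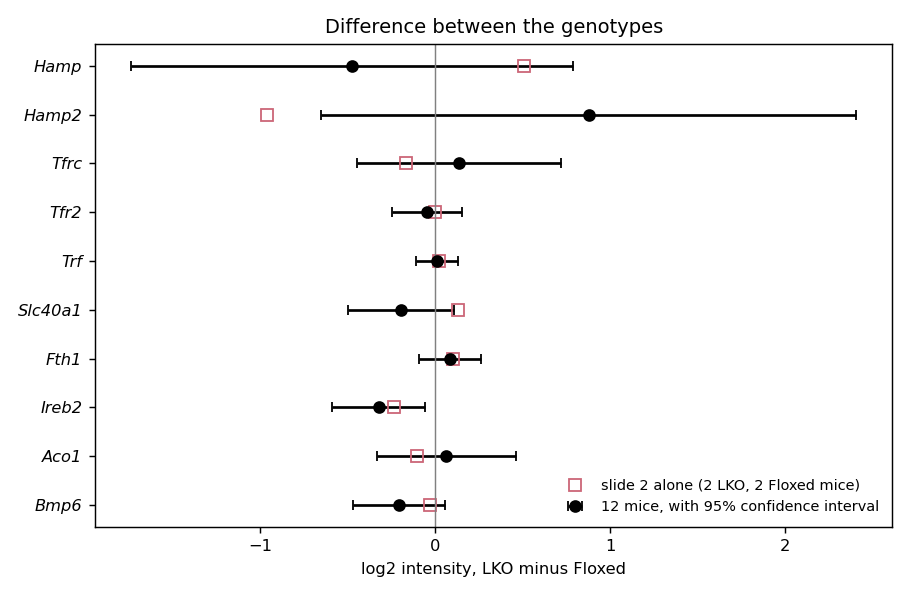
Difference in log2 intensity, LKO minus Floxed (x axis), for the 10 genes, with 95% confidence intervals over 12 mice (filled points) and the difference within slide 2 alone (open squares, 2 mice per genotype). The interval of Ireb2 leaves out 0, and the slide 2 values of Hamp, Hamp2, Tfrc, Slc40a1 and Aco1 lie on the other side of 0 from those over all mice.

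A wider list of 79 iron genes, which holds these 10, gave 77 tested genes. Of these 2 were called (2.6%, beside 8.35% of all genes), Ireb2 and Slc11a2, both lower in LKO mice. Of the 77, 34 lay higher and 43 lower, and the median difference was -0.033. Slc11a2 encodes DMT1, the transporter that moves iron across the endosome membrane after transferrin uptake. It was 6.30, 6.35, 6.45, 6.74, 6.61 and 6.60 in Floxed mice 1 to 6. In LKO mice 1 to 6 it was 5.99, 6.20, 6.07, 6.27, 5.16 and 5.93. The genotypes did not overlap, which 50 of all genes tested (0.296%) shared. Slc11a2 fell by 0.57 (SE 0.17, limma p = 0.00432, adjusted p = 0.333), and the exact permutation p of 0.00216 is the smallest that 6 against 6 mice can give. Within slide 2, and so with slide as a block, its difference was -0.51 and it was not called. A further Slc11a2 probe gave 0.11 (limma adjusted p = 0.936), and with the mean of both probes (-0.23) the gene was not called, so the call belongs to the brighter probe.

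Beside these, no gene of the list was called by its brightest probe. Further probes of Stat3 and Acvr2a, both dimmer and lower in LKO mice, passed the threshold. Of 15 iron uptake genes, Slc11a2 aside, 7 lay higher and 7 lower. Slc39a14, an importer of iron not bound to transferrin, differed by -0.21 (SE 0.19, limma adjusted p = 0.901). All 4 iron export genes lay lower, with a median of -0.15 (2 higher and 2 lower within slide 2), among them Cp, the ferroxidase ceruloplasmin (-0.11, SE 0.10, limma adjusted p = 0.908). Of 12 heme genes, 8 lay higher and 4 lower, with a median of 0.047. The extreme among them, chosen after its value was seen, was Alas1, the first enzyme of heme synthesis (-0.62, SE 0.45, limma adjusted p = 0.843). Hmox1, the heme-degrading oxygenase, differed by -0.081 (SE 0.25, limma adjusted p = 0.977), and Hpx, the heme carrier hemopexin, by -0.18 (SE 0.09, limma adjusted p = 0.675). Of 14 genes of iron-sulfur cluster assembly, 10 lay higher and 4 lower, with a median of 0.043. LKO 5 was the lowest of the 12 mice for 19 of the 77 genes, and LKO 3 and Floxed 1 for 11 each.

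**Figure D4:**
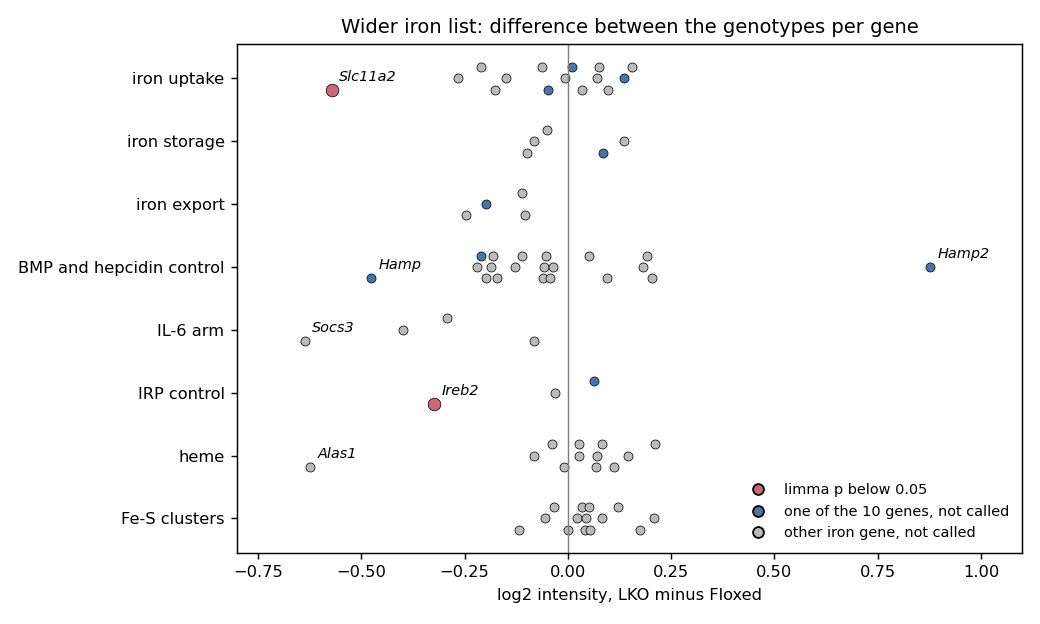
Difference in log2 intensity, LKO minus Floxed (x axis), for the 77 tested iron genes in 8 groups (y axis), 1 point per gene. Red points are the 2 called genes, Ireb2 and Slc11a2, blue points are the other 9 of the 10 genes, and most grey points lie close to 0.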

How the data were processed

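Liver RNA of 6 Floxed and 6 LKO mice was hybridized to single-color Agilent arrays. The authors deposited spot intensity values from Feature Extraction (10.7.1.1 in the file headers, 9.5.1.1 in the submitters' processing notes), which carry no between-array normalization, and normalized intensity per probe. Processed intensities were log2-transformed and quantile-normalized, outlier spots (0.298%) set missing and spots averaged per probe. The filter required a signal well above background on each of the 12 arrays (20404 probes), and the brightest probe stood for a gene. Of 28389 probes with a RefSeq accession, 94.3% matched a symbol (RefSeq, GRCm38.p6). The mark for well above background replaced the detection p of the methods. Genotypes were compared with limma 3.58.1 (R 4.3.3) without covariates. Single genes were also compared by two-sided exact permutation over 924 arrangements, and correlations by 100000 permutations. Alternatives covered normalization, background, filters, probe choice, threshold, test, slide, replicate number and each array left out. The fit was tested on simulated data. The number of arrays limits the precision. Named genes were the 10, 10 iron genes chosen for their roles and called genes of the wider list, and the 3 genes most like Hamp and Ireb2. The genes and lists were chosen with earlier results of these data known.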

Additional observations from a re-analysis of the deposited data

Results flagged for a closer look

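Among 42 sets of 6 mice (10 genes and 11 further iron genes, in each genotype), 7 held a mouse far from the others by Dixon's test at its 95% level, where chance gives 2.1. Hamp was 12.25 in LKO 3, with 15.52 the next lowest of the LKO mice. Slc11a2 was 5.159 in LKO 5, next to 5.933, and Ftl1 was 18.19 in the same mouse, next to 17.84. In Floxed 1, Hjv was 6.525, next to 7.361, and Hpx, the heme carrier hemopexin, was 18.12, next to 17.78. In Floxed 2, Cp was 15.04, next to 15.36, and Slc39a14, an iron and zinc importer, was 10.8, next to 11.49.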

How the results depend on the processing

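Only slide 2 holds both genotypes, so slide as a fixed block gives the slide 2 values: Hamp 0.51, Hamp2 -0.96, Tfrc -0.17, Slc40a1 0.13 and Aco1 -0.11 turned direction, and 317 genes, 0 of the 10 genes and 0 iron genes were called. Slide as a random block, where the consensus correlation within slides was negative (-0.0656), gave 5 iron genes. The 10 genes had 0 calls under 75th percentile scaling and normexp, and iron genes 1 and 4. Scaling to the 75th percentile called 1127 genes higher and 316 lower, beside 832 and 581. Without a filter 2791 genes and 6 iron genes were called. Probes in place of genes gave 4 iron genes (Acvr2a, Ireb2, Slc11a2 and Stat3). The methods' t-test also gave 4 (Acvr1, Bmpr2, Ireb2 and Slc11a2). An adjusted p left 0 genes, 0 of the 10 and 0 iron genes, and an absolute log2 difference of at least 1 left 88, 0 and 0. Aco1 was -0.022 with normexp and Trf -0.00035 in the authors' table. Same-numbered mice carry neighboring tag numbers and Floxed mice were littermates, but the labels tie no number to a litter, and the deviations of same-numbered mice did not settle it (r from -0.235 to 0.317, 2 of 6 closest to their own number). The replicate block gave 1428 genes, 1 of the 10 and 4 iron genes, with Acvr1 and Bmp2 added. Leaving out 1 array at a time gave 1103 to 1838 genes, 0 to 2 of the 10 and 2 to 6 iron genes (6 without Floxed 2, 5 without LKO 1, 4 without Floxed 4, 5 or 6, and 3 without Floxed 1 or 3). The same fits gave -0.68 to 0.12 for Hamp (the highest without LKO 3), -0.080 to 0.27 for Tfrc, -0.092 to 0.018 for Tfr2 and -0.063 to 0.16 for Aco1 (Aco1 was -0.028 without LKO 5), and -0.00046 (without LKO 1) to 0.019 for Trf. The bounds of Tfrc, Tfr2 and Aco1 on the other side of 0 came without Floxed 1. Correlations without LKO 3, chosen after seeing the data, were 0.0615 for Hamp and Hamp2, -0.342 for Hamp and Bmp6, and 0.476 for Hamp and Id1. With genotype and slide means removed they were 0.0445 for Hamp and Hamp2 and -0.0235 for Hamp and Bmp6. Without the 2 farthest mice they were 0.374 for Hamp and Id1, -0.0235 for Bmp6 and Id1, -0.191 for Hamp and Saa1 and -0.252 for Hamp and Tfr2. The cause of these changes was not tested. Ireb2, Slc11a2 and Bmp6 were dim, at percentiles 13.1, 24.4 and 25.9 of the genes tested.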
